A study of Rattus norvegicus with 8 samples.

Results

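The 40 genes described here drive or carry out cell division. They comprise 7 genes of G1 to S control (cyclins D and E, their kinases and E2f1), 12 genes of DNA replication and 21 genes of G2 and mitosis. They were chosen by symbol, as probes whose gene name in the scanner files equals the symbol, among 26214 gene names on the array. All 40 were found, on 53 probes. Of these, 37 genes entered the tests, having signal well above background on both arrays of 1 group or more, and 28 had it on all 8 arrays. Ccne2, Cdc25c and Rrm1 did not reach that level and are given only in the counts over 40.

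Colon RNA came from female Wistar rats aged 14 weeks, fed their diet for 8 weeks. Healthy animals received sunflower oil and no colitis agent. The other 3 groups had colitis induced by 7 days of 5% dextran sulfate sodium (DSS), which damages the epithelium of the colon, on a diet with sunflower oil, high in n-6 fatty acids (n-6 colitis), on α-linolenic acid, a plant n-3 fatty acid (ALA colitis), or on fish oil, which holds the long-chain n-3 fatty acids (fish oil colitis). Each group had 2 one-colour arrays (n = 2 throughout), whose number limits the precision, made from pooled RNA of 6 rats. The healthy group had 6 rats, all of them in the pool, and each colitis group had 10. Separate pools for the arrays within a group are not stated in the labels, so the p-values cover the spread between arrays, which may be technical. The study set the n-3 diets against the n-6 diet. In whole colon, fewer dividing cells and less RNA per dividing cell cannot be told apart.

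A cell commits to division when cyclin D and cyclin E kinases free E2F factors, which switch on the genes of DNA synthesis. The MCM helicase is then loaded on origins by Cdc6 and Cdt1, and a later wave of genes, held down by the DREAM complex in resting cells and driven by B-Myb and FoxM1 once it is taken apart, builds the spindle, condenses chromosomes and separates them. In the colon, dividing cells lie mainly in the lower crypt, and in germinal centres of lymphoid follicles, where B cells divide rapidly.

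All 8 arrays lay on 1 slide, healthy and ALA arrays in row 1 and the others in row 2, with ALA and fish oil in columns 1 and 2 and the others in columns 3 and 4. In each comparison the group and the slide row, column or both cannot be told apart. The 75th percentile of processed signal was 115 on fish oil replicate 1 and 239 on n-6 replicate 2, against 274 to 440 on the other arrays, and the share of probes well above background was 54.0% and 59.8%, against 64.0% to 70.1%. The labelled tissue was borne out by 11 of 11 intestinal epithelium markers well above background on every array. Levels below are log2 signal relative to the 75th percentile of the array, given as replicate 1 then replicate 2. They compare a probe with itself across arrays and not with another probe.

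**Figure D1:**
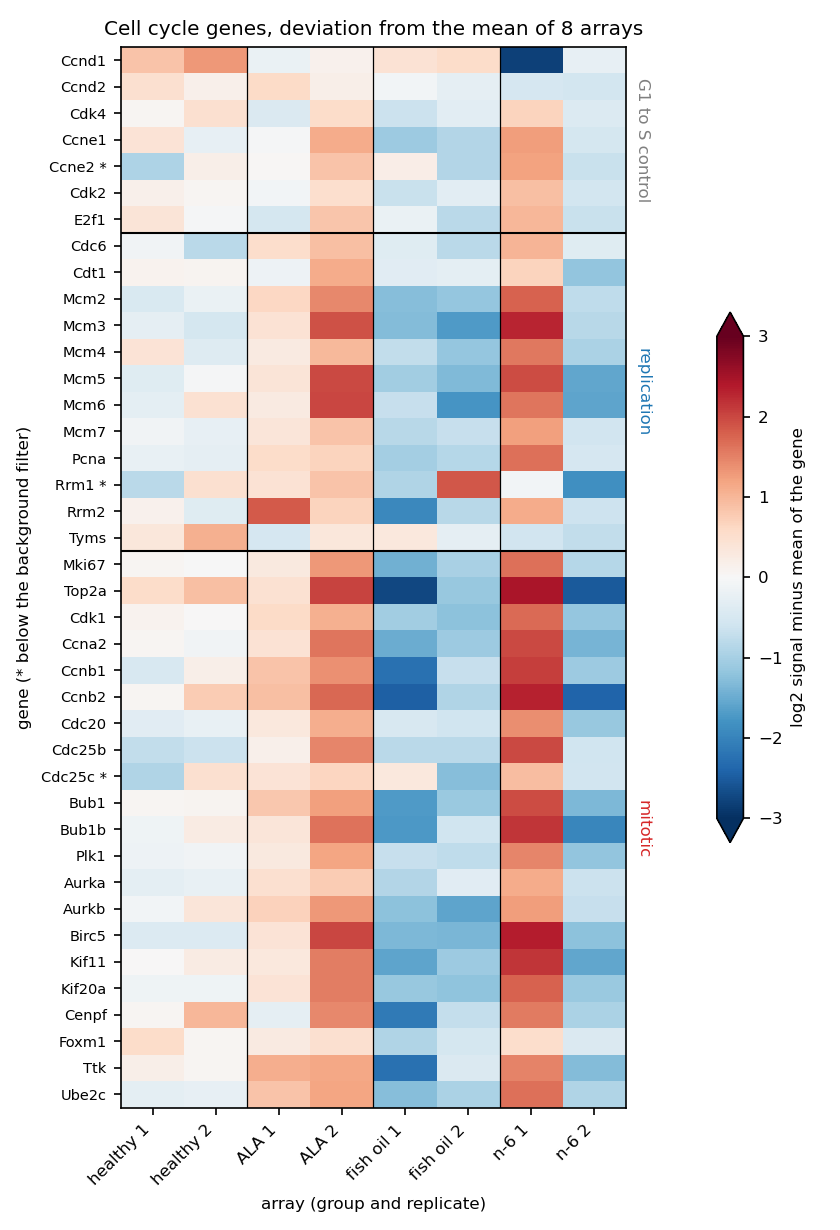
Each row is 1 of the 40 genes and each column 1 array; colour is the log2 signal minus the mean of that gene over 8 arrays, clipped at -3 and 3, and an asterisk marks the 3 genes below the background filter. The first n-6 array and the second ALA array are red for most genes, while both fish oil arrays and the second n-6 array are blue; Ccnd1 runs the other way on the first n-6 array.

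Among the G1 to S genes, only Ccnd1, which encodes cyclin D1, was lower on n-6 replicate 1 than on n-6 replicate 2. Its probe (rn4 chr1:205361630-205361689) stood at 1.69 and 2.15 in healthy colon, 0.65 and 0.96 in ALA colitis, 1.27 and 1.39 in fish oil colitis, and -1.97 and 0.58 in n-6 colitis. Both n-6 arrays lay below every other array, and they lay 2.55 apart. Ccnd2, which encodes cyclin D2, stood at 0.56 and 0.25 in healthy colon, 0.67 and 0.27 in ALA colitis, 0.02 and -0.17 in fish oil colitis, and -0.41 and -0.45 in n-6 colitis. The 4 groups of Ccnd2 were narrow, and the n-6 arrays again lay below all others. Ccne1, the cyclin E that partners Cdk2 at the start of S phase, stood at 0.37 and -0.28, at -0.09 and 1.06, at -1.14 and -0.92, and at 1.21 and -0.58 in the same order of groups. Ccne1 was highest on n-6 replicate 1 and lowest on the fish oil arrays. N-6 replicate 1 was the highest array for 30 of the 40 genes, and a fish oil array was the lowest for 30. Both fish oil arrays lay below both n-6 arrays, as for Ccne1, in 13 of the 40, against 23.6% of all genes tested. Cdk4, the cyclin D kinase, Cdk2, and E2f1, an activating E2F factor, were also highest on n-6 replicate 1, with ranges over the 8 arrays of 1.30, 1.58 and 1.83.

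The replication genes were led by the MCM subunits, which form the helicase that unwinds DNA at the fork. Mcm3 (rn4 chr9:19536947-19537006) stood at 1.46 and 1.19 in healthy colon, 2.17 and 3.63 in ALA colitis, 0.42 and 0.03 in fish oil colitis, and 4.0 and 0.88 in n-6 colitis. Mcm7 stood at 2.29 and 2.14, at 2.75 and 3.25, at 1.55 and 1.69, and at 3.61 and 1.81. For both subunits the ALA arrays lay above the healthy arrays and the fish oil arrays below them, while the n-6 arrays lay on either side. Mcm2 stood at -1.33 and -1.08 in healthy colon, -0.28 and 0.56 in ALA colitis, -2.17 and -2.04 in fish oil colitis, and 0.89 and -1.65 in n-6 colitis. Mcm4, Mcm5 and Mcm6 spread over 2.73, 3.54 and 3.77 across the 8 arrays, with n-6 replicate 1 or ALA replicate 2 at the top of each.

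Rrm2, the small subunit of ribonucleotide reductase, which makes deoxynucleotides, stood at 3.62 and 3.12 in healthy colon, 5.31 and 4.16 in ALA colitis, 1.56 and 2.64 in fish oil colitis, and 4.59 and 2.87 in n-6 colitis. It was the 1 replication gene among the 11 tested that was higher on the first ALA array than on the second. Pcna, the sliding clamp of the DNA polymerases, stood at 0.64 and 0.60, at 1.42 and 1.55, at -0.15 and 0.01, and at 2.51 and 0.36. Cdc6, a loader of the MCM helicase, stood at -2.43 and -3.11, at -1.79 and -1.42, at -2.67 and -3.13, and at -1.29 and -2.67. Pcna repeated the order of Mcm3, while for Cdc6 the fish oil and healthy arrays overlapped. Cdt1, the other loader, was well above background on 5 arrays, with its top on ALA replicate 2. Tyms, thymidylate synthase, was the exception of the class. It stood at -2.11 and -1.37 in healthy colon, -2.94 and -2.10 in ALA colitis, -2.13 and -2.70 in fish oil colitis, and -3.01 and -3.19 in n-6 colitis. Both n-6 arrays were the lowest of the 8 for Tyms, and they differed by only 0.19. With another background correction (normexp) they stood at -2.102 and -1.839, and fish oil replicate 2 stood at -1.845, so that order depended on the setting.

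The promoters of these genes were read from RefSeq (GRCr8) because the members moved together across arrays. Of the 40 genes, 29 had an entry, each with 250 bases before and 50 after the gene's start. On either strand, 3 motifs were searched, none of which contains another: the CHR element TTTGAA, the CCAAT box CCAAT, and the E2F site as TTTGGCGC, TTTCCCGC, TTTCGCGC or TTTGCCGC. An E2F site was in 7 of 9 replication promoters (77.8%), 1 of 17 mitotic promoters (5.88%) and 2.14% of all 33469 promoters of that length. The upstream 250 bases are shown for the 4 members with the smallest unadjusted p in any comparison that hold a motif there, 3 of them replication genes, with motif matches in capitals.
Tyms (chr9:120776084-120776333): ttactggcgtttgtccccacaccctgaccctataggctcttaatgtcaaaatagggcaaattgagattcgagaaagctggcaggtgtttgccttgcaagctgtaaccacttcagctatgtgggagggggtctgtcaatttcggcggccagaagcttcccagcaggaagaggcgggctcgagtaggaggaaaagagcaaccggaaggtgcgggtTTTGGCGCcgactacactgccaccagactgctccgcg
Mcm2 (chr4:122918095-122918344): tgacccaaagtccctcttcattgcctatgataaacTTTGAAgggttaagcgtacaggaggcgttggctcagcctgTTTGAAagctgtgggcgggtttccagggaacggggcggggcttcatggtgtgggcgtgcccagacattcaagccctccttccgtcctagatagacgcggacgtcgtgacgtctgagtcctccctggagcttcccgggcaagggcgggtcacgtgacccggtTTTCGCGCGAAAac
Mcm3 (chr9:30733747-30733996): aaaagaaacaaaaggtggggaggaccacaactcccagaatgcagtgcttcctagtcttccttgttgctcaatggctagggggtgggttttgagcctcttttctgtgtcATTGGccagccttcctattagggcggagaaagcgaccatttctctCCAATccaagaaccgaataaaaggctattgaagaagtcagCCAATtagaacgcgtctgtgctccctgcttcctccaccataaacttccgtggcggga
These 3 genes lie on the minus strand, and each sequence is printed 5′ to 3′ of the gene, ending just before its start. Tyms has 1 E2F match, whose first base lies 37 bases before the start. Mcm2 has E2F matches on both strands that overlap, beginning 14 and 10 bases before the start, and 2 CHR matches. Mcm3 has 3 CCAAT boxes, on both strands, and an E2F match on the opposite strand that runs across the start and so is not in capitals, with a further one 14 bases after the start. A match describes letters and not binding.

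The mitotic genes showed the widest swings. Mki67, which encodes the Ki-67 proliferation antigen, stood at 1.92 and 1.86 in healthy colon, 2.17 and 3.17 in ALA colitis, 0.42 and 0.91 in fish oil colitis, and 3.53 and 1.01 in n-6 colitis (rn4 chr1:195310145-195310204). Top2a, the topoisomerase that untangles chromosomes before they separate, stood at -0.24 and 0.10, at -0.35 and 1.22, at -3.54 and -1.93, and at 1.64 and -3.31. The range of Top2a over the 8 arrays, 5.18, was the widest of the 40 genes. Cdk1, the kinase that starts mitosis, stood at 1.12 and 1.04 in healthy colon, 1.58 and 2.09 in ALA colitis, -0.04 and -0.22 in fish oil colitis, and 2.70 and -0.16 in n-6 colitis. Its partner Ccnb1, cyclin B1, stood at -1.66 and -1.0, at -0.34 and 0.18, at -3.42 and -1.87, and at 0.88 and -2.27. For Mki67, Cdk1 and Ccnb1 the order was the same: ALA above healthy above fish oil without overlap, and n-6 replicate 1 above and replicate 2 below the healthy arrays.

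Plk1, the polo kinase of spindle assembly, stood at 0.14 and 0.18 in healthy colon, 0.58 and 1.49 in ALA colitis, -0.39 and -0.47 in fish oil colitis, and 1.75 and -0.89 in n-6 colitis. Birc5, which encodes survivin, a subunit of the chromosomal passenger complex, stood at -0.91 and -0.90, at -0.09 and 1.51, at -1.85 and -1.87, and at 1.87 and -1.72. Foxm1, a transcription factor of the mitotic wave, had the narrowest range of the class, 1.45, with -0.56 and -1.05, -0.83 and -0.62, -2.01 and -1.63, and -0.58 and -1.53. Aurkb, the kinase of the passenger complex, stood at -3.91 and -3.48, at -3.13 and -2.54, at -5.06 and -5.43, and at -2.59 and -4.53. The fish oil arrays held the lowest values of Foxm1 and Aurkb, and Aurkb was not well above background on either of them. Ccnb2, Bub1b, Kif11 and Bub1, which serve mitotic entry, the spindle checkpoint and the spindle motor, spanned 4.77, 4.09, 3.72 and 3.66, each with its top on n-6 replicate 1. Cdc20, an activator of the anaphase-promoting complex, Ube2c, its ubiquitin-conjugating enzyme, Cdc25b, a Cdk1-activating phosphatase, and Kif20a and Aurka, of cytokinesis and the spindle poles, were also highest on that array, as were Ccna2, cyclin A2, and Cenpf, a centromere protein.

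Ttk, the Mps1 checkpoint kinase, stood at -1.80 and -1.93 in healthy colon, -0.90 and -0.82 in ALA colitis, -4.21 and -2.42 in fish oil colitis, and -0.48 and -3.28 in n-6 colitis. Its upstream 250 bases, on the plus strand, are the mitotic promoter among the 4 chosen above.
Ttk (chr8:93634389-93634638): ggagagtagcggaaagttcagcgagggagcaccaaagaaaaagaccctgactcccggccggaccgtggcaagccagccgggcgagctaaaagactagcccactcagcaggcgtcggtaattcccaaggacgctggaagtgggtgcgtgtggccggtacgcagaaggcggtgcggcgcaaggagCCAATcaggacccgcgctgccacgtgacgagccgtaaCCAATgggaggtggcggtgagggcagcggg
The capitals are 2 CCAAT boxes, whose first bases lie 67 and 30 bases before the start, and a CHR match on the opposite strand begins 5 bases after the start. A CHR match was in 11 of 17 mitotic promoters (64.7%), 1 of 9 replication promoters (11.1%) and 18.3% of all promoters. A CCAAT box was in 14 of 17 (82.4%), 6 of 9 (66.7%) and 37.5%. Both motifs together were in 10 mitotic and 0 replication promoters. Of the 3 G1 to S promoters with an entry, 1 held a CCAAT box, and 0 held the other motifs.

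Replication and mitotic genes were then set side by side on each array, as the median deviation from each gene's mean over the 8 arrays. For the 11 replication genes tested the medians were -0.12 and -0.24 in healthy colon, 0.40 and 0.97 in ALA colitis, -0.84 and -0.86 in fish oil colitis, and 1.58 and -0.76 in n-6 colitis. For the 20 mitotic genes they were -0.04 and 0.04, 0.43 and 1.33, -1.40 and -0.92, and 1.73 and -1.16. The classes thus moved the same way on the 6 colitis arrays, and the mitotic medians spread wider, over 3.13 against 2.44 for replication and 1.32 for the 6 G1 to S genes, though with normexp background correction the spreads were 2.01 for mitotic and 1.96 for replication genes. The replication median stood above the mitotic one by 0.56 and 0.06 on the fish oil arrays and by 0.40 on n-6 replicate 2, and below it on the other 5 arrays, where the difference reached -0.36 on ALA replicate 2. The sign of this difference depended on the background correction. The normexp setting, chosen after seeing the data, added an offset of 50 to every signal, which narrows differences between dim signals. The median processed signal was 12.9 on fish oil replicate 1 and 23.4 on n-6 replicate 2. With normexp the difference between the classes was -0.07 and -0.06 on the fish oil arrays. It turned positive, at 0.04 on healthy replicate 1 and 0.07 on ALA replicate 1. In the deposited value table the difference on n-6 replicate 1 was -0.59, against -0.15. Over the 8 replication and 14 mitotic genes well above background on all 8 arrays, the difference was 0.28 and 0.11 on the fish oil arrays and 0.45 on n-6 replicate 2, against -0.39 on ALA replicate 2 and -0.32 on n-6 replicate 1, and it turned positive on healthy replicate 1 (0.04) and ALA replicate 1 (0.08). The gap between the classes was therefore small beside the movement they shared.

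**Figure D2:**
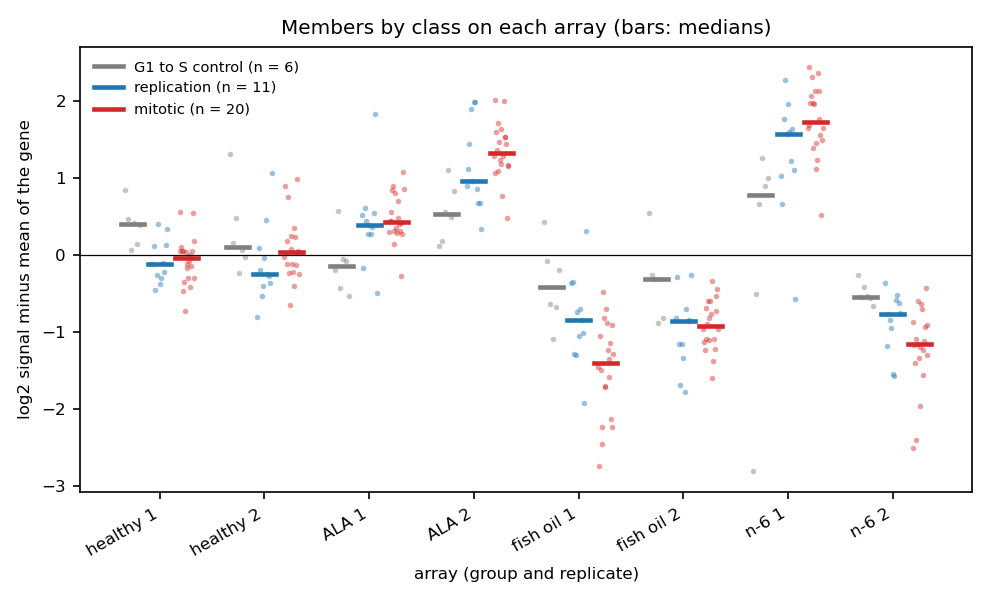
Points are the deviations of the 37 tested genes from their own mean on each array (log2), coloured by class, and bars are class medians. Replication and mitotic medians lie together, near 0 on the healthy arrays, above 0 on both ALA arrays and n-6 replicate 1, and below 0 on the fish oil arrays and n-6 replicate 2.

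The n-6 arrays disagreed on these genes. Replicate 1 was above replicate 2 in 39 of the 40, Ccnd1 being the exception. Over the 37 tested, the median of replicate 1 minus replicate 2 was 2.53, a 5.79-fold difference, with 2.83 for mitotic, 2.16 for replication and 1.27 for G1 to S genes. Top2a differed by 4.95 (31.0-fold), Ccnb2 by 4.71 (26.2-fold), Bub1b by 4.09 (17.1-fold) and Mcm5 by 3.51 (11.4-fold). Ccnb2, Bub1b and Mcm5 were not well above background on both n-6 arrays, so their folds are uncertain. The fold of Top2a also depended on the processing. With normexp background correction the n-6 arrays stood at 1.52 and -1.83 for Top2a and -0.68 and -2.25 for Ccnb2. In that setting they stood at -0.60 and -2.13 for Bub1b, and -0.81 and -2.10 for Mcm5. The further probe of Top2a, which did not pass the filter, differed by 1.49 in the main setting. In the main setting the n-6 difference passed 1 on the log2 scale in 34 of 37 genes (91.9%), against 22.7% of all 18186 genes tested, whose median absolute difference was 0.53. Across all genes the n-6 pair correlated at r = 0.948, the lowest of 4 pairs (the others 0.953 to 0.971, across genes, which are not independent replicates). N-6 replicate 1 was the highest of the 8 arrays for 30 of the 40 genes and above both healthy arrays for 35. N-6 replicate 2 was below both healthy arrays for 36 and below both ALA arrays for 39. Against fish oil it was above both arrays for 13 genes, below both for 9 and between them for 18.

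In the other groups the members' median absolute difference was 0.27 for healthy, 0.84 for ALA and 0.38 for fish oil, against 0.34, 0.48 and 0.39 over all genes. ALA replicate 2 was above replicate 1 in 35 of 37 members, the exceptions being Rrm2 and Ccnd2. The mean of the n-6 group lies far from both of its arrays for most members, and each comparison with n-6 below is given with and without each n-6 array.

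**Figure D3:**
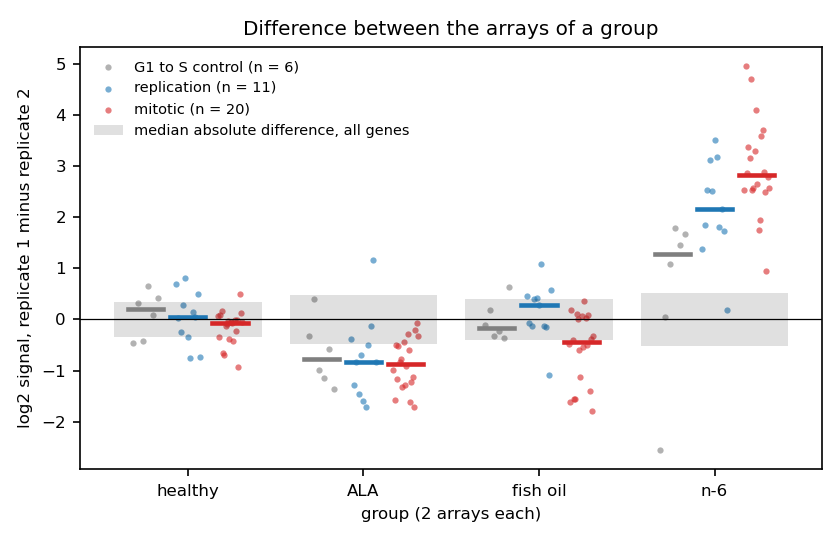
Points are replicate 1 minus replicate 2 (log2 signal) of the 37 tested genes in each group, bars are class medians, and the grey band spans plus and minus the median absolute difference over all genes tested. The n-6 points lie mostly between 1 and 5, outside the band, the ALA points mostly below 0, and the healthy and fish oil points around 0.

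Markers of other cells moved with the members between the n-6 arrays. B cell and germinal centre markers, 9 of 10 tested, had median deviations of -1.33 and -1.0 in healthy colon, 1.21 and 3.18 in ALA colitis, -0.82 and -2.99 in fish oil colitis, and 2.88 and -0.91 in n-6 colitis. Their summed signal on the log2 scale ran 2.06 to 2.32, 3.67 to 4.97, 2.36 to 2.79, and 3.15 to 5.21 in those groups, and 4 and 6, 9 and 9, 3 and 3, and 9 and 6 of the 10 were well above background on the arrays. Bcl6, the repressor that defines germinal centre B cells, stood at 4.39 and 2.90 in n-6 colitis. Intestinal epithelium markers ran the other way, with medians of 0.09 and 0.08, -0.13 and -0.30, 0.63 and 0.33, and -1.31 and 0.31, and absorptive colonocyte markers stood at -1.38 and 0.47 in n-6 colitis. The summed epithelial signal ran 8.91 to 9.03, 8.65 to 8.84, 9.28 to 9.74, and 7.80 to 9.42, with 11 of 11 markers well above background on each array. The arrays with high B cell markers, n-6 replicate 1 and ALA replicate 2, were those with the highest replication and mitotic medians. Healthy colon and fish oil colitis differed from that order, since B cell medians in healthy colon lay below that of fish oil replicate 1, while replication and mitotic medians lay above it. The part of these cells in the members' values was not tested.

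**Figure D4:**
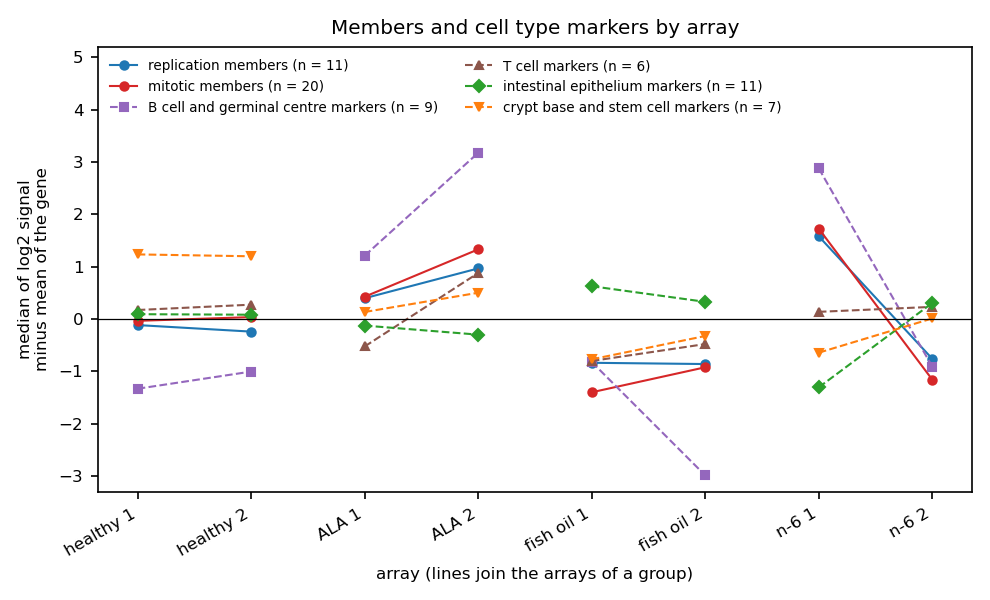
Lines join the arrays of a group and show, per array, the median over a list's tested genes of the log2 signal minus the mean of the gene. B cell markers and the members are both high on n-6 replicate 1 and ALA replicate 2, epithelium markers are lowest on n-6 replicate 1, and crypt base and stem cell markers are highest in healthy colon.

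In all 6 comparisons between groups, 0 of the 37 members passed limma's test at an adjusted p of 0.05 (Benjamini-Hochberg over all 18186 genes). At an unadjusted p of 0.05 the counts were 3, 1, 2, 0, 2 and 16, in the order given below. The comparisons share arrays, each group entering 3 of them, so their values are set side by side and are not independent.

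N-6 colitis against healthy colon gave small, mixed differences, with the n-6 arrays on either side of the healthy ones. The median log2 difference was 0.41 for replication and 0.26 for mitotic genes, against 0.03 over all genes. Members passing an adjusted p of 0.05 were 0, against 0.0385% of all genes, and members at an unadjusted 0.05 were 3 of 37, against 14.3%. Of the 40, 1 member (Cdc25b) lay higher in n-6 without overlap of the arrays and 3 (Ccnd1, Ccnd2 and Tyms) lower, against 23.7% and 21.7% of all genes, shares below the background. Ccnd1 was lower by 2.62 (SE 0.75, 6.13-fold, limma adjusted p = 0.215), Tyms by 1.36 (SE 0.43, adjusted p = 0.246) and Ccnd2 by 0.84 (SE 0.30, adjusted p = 0.289). Without n-6 replicate 1 the replication median was -0.51 and the mitotic median -1.01, with 35 of 37 members lower without overlap, against 37% of all genes in that setting, since 1 array separates more easily. Without n-6 replicate 2 they were 1.52 and 1.80, and Ccnd1 passed, at -3.89 (SE 0.36, limma adjusted p = 0.0491); leaving 1 array in a group assumes that it varies like the others.

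ALA colitis against n-6 colitis likewise turned on which n-6 array was used. The medians were 0.52 for replication and 0.64 for mitotic genes, against 0.07 over all genes. Passing members were 0, against 0.0275% of all genes, and 1 of 37 at an unadjusted 0.05, against 5.79%. Of the 40, 4 members lay higher in ALA without overlap, against 16.9% of all genes, and 0 lower, against 13.1%. Ccnd2 was higher by 0.90 (SE 0.30, limma adjusted p = 0.838), Ccnd1 by 1.5 (SE 0.75, adjusted p = 0.886) and Rrm2 by 1.01 (SE 0.69, adjusted p = 0.939). Without n-6 replicate 1 the medians were 1.66 and 2.04, with 36 of 37 members higher without overlap, against 36.7% of all genes, and without n-6 replicate 2 they were -0.61 and -0.90. Ccnd1 was higher by 0.22 without n-6 replicate 1 and by 2.77 without replicate 2, and Rrm2 by 1.87 and 0.15. Centring each array on its median left 1 of 37 tested members higher without overlap, in place of 3, and the share of all genes was not computed in that setting.

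Fish oil colitis against n-6 colitis gave medians of -1.27 for replication and -1.54 for mitotic genes, against 0.01 over all genes. Passing members were 0, against 0.0385%, and 2 of 37 at an unadjusted 0.05, against 12% of all genes. Of the 40, 13 lay lower in fish oil without overlap, against 23.6%, and 3 higher (Ccnd1, Ccnd2 and Tyms), against 23.1%. With normexp background correction the Tyms arrays overlapped. Aurkb was lower by 1.68 (SE 0.62, limma adjusted p = 0.410, 95% interval -3.155 to -0.213), and it was not well above background in fish oil colitis. With its fish oil signals raised, where lower, to the lowest signal called well above background on the array, the fold was 2.83. That fold does not allow for the spread between arrays and is not a lower limit. Ccnd1 was higher by 2.02 (SE 0.75, adjusted p = 0.410), and Pcna was lower by 1.5 (SE 0.64, adjusted p = 0.415). Without n-6 replicate 1 the medians were -0.19 and -0.05, and without n-6 replicate 2 they were -2.53 and -2.90. The Aurkb difference was -0.71 without n-6 replicate 1 and -2.65 without replicate 2, so the fold of 2.83 holds only for the mean of the pair. Ccnd1 was higher by 0.75 and 3.30, and Pcna differed by -0.43 and -2.58, in the same order. With normexp background correction 6 members in place of 13 were lower without overlap, and the Aurkb difference was -0.03. The share of all genes was not computed in that setting, so a drop particular to the members cannot be read from this count. Both arrays of B cell markers in fish oil colitis lay between or below those of n-6, and their part was not tested.

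ALA colitis against healthy colon compares arrays of the same slide row, in different columns. Its differences do not use the n-6 arrays, but its standard errors and p-values do, since all 8 arrays share 1 estimate of the spread. Median differences were 1.05 for replication and 0.92 for mitotic genes, against 0.04 over all genes, and 10 of 11 and 20 of 20 of those tested had a higher mean in ALA. Passing members were 0, against 0% of all genes, and 0 of 37 at an unadjusted 0.05, against 6.54%. Without overlap of the arrays, 24 of the 40 lay higher in ALA, against 22.5% of all genes, and 1 (Ccnd1) lower, against 18.1%. The higher members included 17 of 20 mitotic genes tested, among them Mki67 and Ube2c, and 7 of 11 replication genes, among them Mcm2, Mcm3 and Pcna. Cdc6 was higher by 1.17 (SE 0.51, 2.25-fold, limma adjusted p = 0.771), Rrm2 by 1.36 (SE 0.69, adjusted p = 0.773) and Cdc25b by 1.5 (SE 0.82, adjusted p = 0.787). Without ALA replicate 2, the array with the most B cell marker signal in its group, the medians were 0.60 and 0.52. In a fit of the 4 ALA and healthy arrays alone, 13 of 37 members had an unadjusted p under 0.05, against 7.21% of all genes, and 0 passed limma's adjusted threshold. B cell markers were higher on both ALA arrays than on both healthy arrays, and crypt base and stem cell markers were lower, with a median difference of -0.62. Their part was not tested.

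Fish oil colitis against healthy colon gave lower values in fish oil, though with normexp background correction 4 of 11 replication and 4 of 20 mitotic genes were higher. Median differences were -0.89 for replication and -1.22 for mitotic genes, against 0.00 over all genes, and 37 of 37 tested members had a lower mean in fish oil. Passing members were 0, against 0% of all genes, and 2 of 37 at an unadjusted 0.05, against 3.89%. Both fish oil arrays lay below both healthy arrays for 36 of the 40 members, against 20.4% of all genes, and above them for 0, against 18.3%. The exceptions were Cdc6, where the arrays overlapped, and the 3 genes below the filter. Foxm1 was lower by 1.02 (SE 0.41, limma adjusted p = 0.994), Aurkb by 1.55 (SE 0.62, 95% interval -3.021 to -0.079, adjusted p = 0.994) and Cenpf by 1.95 (SE 0.97, adjusted p = 0.994). For Aurkb, with its fish oil signals raised as above, the fold was 2.58, which is not a lower limit. Without fish oil replicate 1, the dimmest of the 8 arrays, the medians were -0.83 and -0.97. With normexp they were -0.27 and -0.31, with 22 of 37 members lower without overlap and Aurkb at 0.26 (limma adjusted p = 0.823). The share of all genes lower without overlap was not computed with normexp. Over the 28 members well above background on all 8 arrays, the median was -0.87 in the main setting. Crypt base and stem cell markers, 7 of 10 tested, had lower medians too, at 1.24 and 1.20 in healthy colon against -0.77 and -0.33 in fish oil colitis. Of the 10, 7 and 7 against 3 and 5 were well above background. Their summed signal was not lower, at 3.72 and 3.20 in healthy colon against 3.92 and 3.21 in fish oil colitis, and 1 of the 7 had a higher mean there. Their medians were also below healthy in ALA colitis (0.13 and 0.50) and n-6 colitis (-0.64 and 0.01), including the arrays on which the members were highest. The summed signal was 2.49 and 3.09 in ALA colitis and 3.87 and 3.97 in n-6 colitis. T cell markers, 6 of 8 tested, were lower in fish oil than in healthy colon without overlap in 6 of 6, with a median difference of -0.79. In a fit of the fish oil and healthy arrays alone, 19 of 37 members had an unadjusted p under 0.05, against 6.53% of all genes, and 0 passed limma's adjusted threshold. The part of these cells in the result was not tested, and slide row and group cannot be told apart.

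ALA colitis against fish oil colitis gave the largest differences of the 6. Medians were 1.57 for replication and 2.15 for mitotic genes, against 0.01 over all genes. Passing members were 0, against 0% of all genes, while 16 of 37 had an unadjusted p of 0.05 or less, against 9.59%. Both ALA arrays lay above both fish oil arrays for 34 of the 40, against 25.3% of all genes, including 20 of 20 mitotic genes tested, and below for 1 (Ccnd1), against 20.4%. Aurkb was higher by 2.41 (SE 0.62, limma adjusted p = 0.477, 95% interval 0.939 to 3.88). With its fish oil signals raised as above, the fold was 4.68, which is not a lower limit. Rrm2 was higher by 2.64 (SE 0.69, 6.23-fold, limma adjusted p = 0.477) and Mcm2 by 2.24 (SE 0.76, adjusted p = 0.477). Tyms, whose arrays overlapped, and Ccnd1 were the 2 tested members without a higher mean in ALA. Among the mitotic genes, Top2a, Ccnb2, Bub1b, Aurkb, Cenpf and Ttk did not have signal well above background on both fish oil arrays. Over the 28 members well above background on all 8 arrays, the median was 1.56, and 24 lay higher in ALA without overlap. With normexp the mitotic median was 1.23 and the Aurkb difference 0.21. In that setting the arrays also overlapped for the mitotic genes Aurkb, Bub1b and Cenpf, and for Cdc6, Cdt1, Mcm5 and Mcm6. In a fit of the ALA and fish oil arrays alone, 30 of 37 members had an unadjusted p under 0.05, against 12.3% of all genes, and 0 passed limma's adjusted threshold. B cell markers were higher on both ALA arrays than on both fish oil arrays. Crypt base and stem cell markers had a median difference of 1.08 over 7, with 6 higher and 1 lower in ALA. Their summed signal ran the other way, at 2.49 and 3.09 in ALA colitis against 3.92 and 3.21 in fish oil colitis. Of the intestinal epithelium markers, 10 of 11 were lower in ALA without overlap, with a median of -0.69. The part of these cells was not tested, and slide row and group cannot be told apart.

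**Figure D5:**
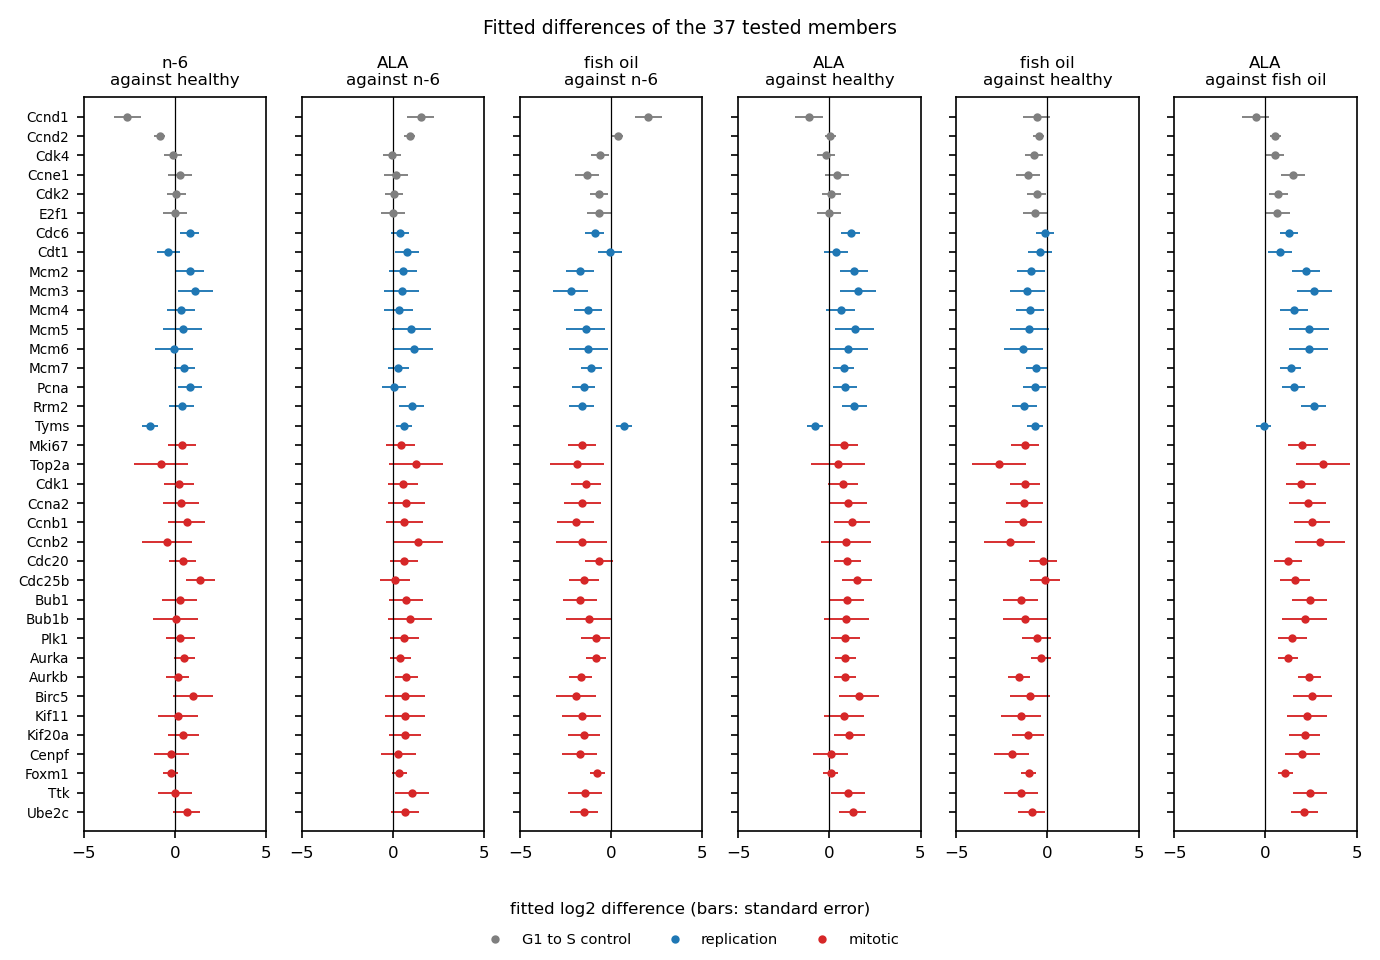
Points are fitted log2 differences of the 37 tested genes in the 6 comparisons, bars are standard errors, and colour gives the class. Points of ALA against fish oil lie mostly right of 0 and those of fish oil against healthy left of 0 (with normexp, 4 of 11 replication and 4 of 20 mitotic genes lie right of 0 there); 0 of the 37 passed the adjusted threshold in each panel.

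Most genes of the same processes outside the 40 followed the same order of arrays. Of 38 other replication genes, such as Fen1, the flap nuclease, Rfc1, of the clamp loader, and Lig1, the DNA ligase of the lagging strand, 33 were tested. Of 48 other mitotic genes, such as Bub3, Pttg1 (securin) and Kif22, 41 were tested. Their medians for n-6 replicate 1 minus replicate 2 were 1.91 and 2.25. For ALA against fish oil colitis they were 1.34 and 1.52, with 27 and 38 genes higher without overlap, against 25.3% of all genes. In the same comparison 0 passed limma's adjusted threshold, while 13 and 14 were higher and 0 and 1 lower at an unadjusted 0.05, against 9.59% of all genes. For fish oil colitis against healthy colon they were -0.55 and -1.02, with 27 and 35 genes lower without overlap, against 20.4% of all genes. Fen1 stood at 2.89 and 2.26 in healthy colon, 2.39 and 3.38 in ALA colitis, 1.60 and 1.61 in fish oil colitis, and 3.93 and 1.77 in n-6 colitis. Bub3, a checkpoint protein, did not follow, at 4.14 and 3.82, 3.45 and 3.93, 4.05 and 3.55, and 3.80 and 3.02. Hmmr, a spindle and hyaluronan-binding protein named after its values were seen, ran the other way, at -6.85 and -7.89 in healthy colon, -6.62 and -7.23 in ALA colitis, -4.38 and -3.81 in fish oil colitis, and -7.43 and -6.63 in n-6 colitis, and was well above background on 2 arrays.

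The brakes of the cycle showed no shared shift. Of the 10 CDK inhibitors and pocket proteins, all tested, the list's medians lay between -0.08 and 0.01 in the 6 comparisons. In each, 0 passed limma's adjusted threshold, against 0% to 0.0385% of all genes. At an unadjusted 0.05 the counts were 0 to 1, against 3.89% to 14.3% of all genes. Cdkn1a, the p21 inhibitor, stood at 3.19 and 2.57 in healthy colon, 3.19 and 2.27 in ALA colitis, 2.62 and 2.91 in fish oil colitis, and 2.61 and 3.78 in n-6 colitis. Within the n-6 and ALA pairs it was thus lower on the array where most members were higher. That order did not hold across groups. Cdkn1a stood at 2.62 on fish oil replicate 1, where the members' median was lowest, and at 2.61 on n-6 replicate 1, where it was highest. Cdkn2b, the p15 inhibitor, stood at 0.67 on n-6 replicate 1 and between 2.22 and 2.95 elsewhere. Of 19 cell cycle transcription factors and checkpoint kinases, 14 were tested, with a median of 0.87 for ALA against fish oil colitis. In that comparison 0 passed limma's adjusted threshold, against 0% of all genes. At an unadjusted 0.05, 4 were higher and 0 lower, against 9.59% of all genes in either direction. Myc, an inducer of growth genes, stood at 1.13 and 1.08, 1.21 and 1.44, 0.29 and -0.28, and 2.18 and 1.51, and Wee1, the kinase that restrains Cdk1, at -0.20 and -0.27, 0.45 and 0.72, -1.44 and -0.03, and 1.23 and -0.89.

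Further probes mostly gave the same directions. Of the 40 genes, 12 had more than 1 probe (E2f1, Mki67, Top2a, Ccna2, Cdc25b, Bub1, Cenpf, Foxm1, Mcm2, Mcm3, Mcm4 and Rrm2), and 11 further probes of 10 of them passed the filter. All 11 had the sign of the probe used for n-6 replicate 1 minus replicate 2, and for fish oil against n-6 and ALA against fish oil colitis. For fish oil against healthy 10 did, the exception being Rrm2, whose further probe stood at -2.84 and -2.52 in healthy colon and -2.15 and -3.16 in fish oil colitis. For ALA against healthy and ALA against n-6 10 did, without E2f1, and for n-6 against healthy 7 did, without Cdc25b, E2f1, Foxm1 and Mcm2. Their n-6 differences lay a median of 0.50 and at most 1.27 from that of the probe used.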

How the data were processed

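Colon RNA of 4 groups was measured on 8 one-colour Agilent arrays. The scanner files hold spot intensity values made with Agilent Feature Extraction 11.5.1.1, background-subtracted and not scaled between arrays, per the file headers, with probe positions on rn4. The authors' deposited value table holds log2 values per gene symbol and served as an alternative. Control and outlier spots were left out, spots of a probe averaged, and log2 of the processed intensity was taken minus the array's own 75th percentile. The filter kept 20803 of 30367 probes, those well above background on both arrays of 1 group or more, and a gene is its probe with the highest mean signal, named by the file (18186 genes). By accession, 48 of the 53 probes matched RefSeq, all with the same symbol. limma 3.58.1 in R 4.3.3 fitted all 8 arrays together (4 residual and 3.01 prior degrees of freedom), with Benjamini-Hochberg adjustment, and was tested on simulated data. The members and lists were chosen with earlier results of these data known, so no test was made over them. Fit values are given for the 3 members with the smallest unadjusted p in each comparison. In each class, levels are given for members with the highest mean signal and for those that differ from their class. Alternatives were the scaling, the background correction (normexp with an offset of 50), the filter, the mean of probes and the value table. Further ones were the variance prior, a fit of only the groups compared, a replicate block and leaving out each array.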

Additional observations from a re-analysis of the deposited data

How the results depend on the processing

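In every setting other than leaving out an array, 0 members passed limma's adjusted threshold in each of the 6 comparisons. With normexp background correction, the medians for fish oil against healthy were -0.27 (replication) and -0.31 (mitotic), 22 members were lower without overlap and Aurkb turned to 0.26; the replication median for ALA against healthy was 0.75, the mitotic median for ALA against fish oil 1.23, and 6 members were lower without overlap in fish oil than in n-6. That setting added an offset of 50 to every signal, and the part of the offset in these changes was not tested. The replication median for fish oil against healthy was -0.79 with no filter and with signal above background required on all 8 arrays, -0.69 with the mean of probes and -0.75 in the deposited value table. That for ALA against fish oil was 1.93 with the mean of probes. Median centring left 1 member higher without overlap in ALA than in n-6. With normexp the difference between replication and mitotic medians turned sign on both fish oil arrays, healthy replicate 1 and ALA replicate 1. Counts without overlap were added after seeing the data, and with normexp or median centring they have no share over all genes beside them. Scaling moved the median of all genes by at most 0.20 (median centring) and 0.24 (normexp). Replicate numbers name arrays and give no pairing (same-number correlations -0.17 to 0.47); with a replicate block, 0 members passed in each comparison, with a smallest adjusted p of 0.172 in n-6 against healthy.

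Leaving out each array in turn, medians for replication and mitotic genes ran from -0.51 to 1.52 and -1.01 to 1.80 in n-6 against healthy, where 0 to 1 members passed (Ccnd1, -3.89 to -1.34) and 3 to 35 were lower without overlap. They ran from -0.61 to 1.66 and -0.90 to 2.04 in ALA against n-6, with 3 to 36 higher without overlap, and from -2.53 to -0.19 and -2.90 to -0.052 in fish oil against n-6, with 13 to 34 lower. For ALA against healthy they ran from 0.60 to 1.05 and 0.52 to 1.32, with 25 to 33 higher, for fish oil against healthy from -0.96 to -0.77 and -1.41 to -0.97, with 36 to 37 lower, and for ALA against fish oil from 1.49 to 1.91 and 1.68 to 2.67. With fewer arrays, groups separate more easily by construction: between 23.1% and 46.7% of all genes did so in a given direction in these settings. Members near background on the dim arrays (fish oil replicate 1 and n-6 replicate 2), such as Ccnb2, Cdt1 and Aurkb, have the least certain folds.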

Other observations

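Other cell type markers followed other orders of arrays. Macrophage markers, 7 of 9 tested, had median deviations of -1.08 and -0.66 in healthy colon and between -0.18 and 0.65 on the 6 colitis arrays, and they stood at 0.65 and 0.51 on the n-6 arrays that differed in the cell cycle genes. Fibroblast markers, 8 of 9 tested, stood at 0.90 and 0.34 in n-6 colitis and between -0.61 and 0.09 elsewhere. Red cell precursor markers, 9 of 12 tested, stood at 1.36 and 0.90 in n-6 colitis and between -1.70 and 0.02 elsewhere. Neutrophil markers, 6 of 9 tested, ran from -1.39 to 0.93, with both n-6 arrays above both healthy arrays. T cell markers, 6 of 8 tested, stood at 0.17 and 0.27 in healthy colon, -0.53 and 0.88 in ALA colitis, -0.80 and -0.48 in fish oil colitis and 0.14 and 0.23 in n-6 colitis, so they were near each other on the n-6 arrays and lowest in fish oil colitis, apart from ALA replicate 1. Goblet cell markers were lowest in healthy colon, at -0.63 and -0.71, and endothelium and smooth muscle markers ran from -0.54 to 0.46 and from -0.56 to 0.38. These are levels, with no test.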
